A study of Mus musculus with 3 samples.

Results

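Apoe and Apoc1 are 2 apolipoprotein genes that lie side by side on mouse chromosome 7. They were described in single-cell RNA libraries of mouse lung after bleomycin, a drug that injures the alveolar epithelium. The 2 members stand among 32287 features, 2 of which are the fluorescent reporters of the mice. They were chosen from their measured values in the same libraries, so the levels below are descriptions and carry no test. All mice had the genotype Scgb1a1-CreER;Sftpc-DreER;R26-TLR and were taken 4 weeks after bleomycin. CreER is driven by Scgb1a1, the main gene of club cells, and DreER by Sftpc, the main surfactant gene of alveolar type 2 (AT2) cells. Cells were sorted by reporter into 3 libraries: Club-Tracer (tdTomato), BASC-Tracer (tdTomato and ZsGreen) and AT2-Tracer (ZsGreen). Each group is 1 library, no uninjured library is used here, and the number of mice behind a library is not given in the labels. Intervals therefore cover counting error at 95% only and say nothing of the spread between mice. Those of levels and ratios do not cover the spread between cells either.

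Apolipoproteins coat lipoprotein particles. ApoE is the ligand by which LDL-receptor family members take particles up, and macrophages secrete it together with the cholesterol that the transporters ABCA1 and ABCG1 export. ApoC1 is a small exchangeable apolipoprotein that hinders this uptake and lipoprotein lipase. In the lung both cells that handle surfactant lipid, the AT2 cell that makes it and the alveolar macrophage that clears it, have an active lipid metabolism.

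In GENCODE M21 (GRCm38), Apoe (ENSMUSG00000002985) spans chr7:19696109-19699188 on the reverse strand. Apoc1 (ENSMUSG00000040564) spans chr7:19689481-19692660 on the same strand, with 3448 bases between the 2 genes. Both are protein-coding, and no other annotated gene overlaps either of them. Further downstream on that strand lie Apoc4 (chr7:19681479 back to 19678083) and Apoc2 (chr7:19677941 back to 19671579), which are overlapped by Gm44805, so that the split of reads between them is uncertain. The 250 bases before the first listed start of Apoe (chr7:19699189-19699438) and before that of Apoc4 (chr7:19681461-19681710) are shown because both genes were far higher in one kind of macrophage, described below. They are RefSeq sequences of GRCm38.p6, written 5′ to 3′ on the reverse strand, with matches to 5 motifs in capitals.

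Apoe: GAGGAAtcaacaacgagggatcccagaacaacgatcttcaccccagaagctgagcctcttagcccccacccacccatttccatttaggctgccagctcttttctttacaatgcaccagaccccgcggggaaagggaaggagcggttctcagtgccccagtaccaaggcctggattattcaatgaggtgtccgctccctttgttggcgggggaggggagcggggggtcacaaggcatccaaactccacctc
Apoc4: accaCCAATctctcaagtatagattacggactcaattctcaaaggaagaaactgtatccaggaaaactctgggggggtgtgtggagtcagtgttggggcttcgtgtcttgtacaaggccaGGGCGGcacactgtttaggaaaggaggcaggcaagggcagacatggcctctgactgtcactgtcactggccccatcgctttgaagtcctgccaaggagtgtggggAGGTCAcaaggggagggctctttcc

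The motifs, searched on both strands, were TATAAA (the TATA box), GGGCGG (the GC box), GAGGAA (the core of the PU.1 site), CCAAT and AGGTCA (the nuclear receptor half-site). The Apoe window held 1 match, to GAGGAA, which 23.3% of all 32851 windows of that length held. The Apoc4 window held 1 match each to CCAAT (33.8% of windows), GGGCGG (32.7%) and AGGTCA (14.0%). TATAAA (12.4% of windows) was in neither window shown, and the window before the second listed start of Apoe held 2 matches to it. These are letter matches and no evidence of binding. RefSeq lists 3 starts for Apoe in this table, of which the first is shown, and Apoc1 was not matched.

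After barcodes with fewer than 500 genes or over 15% mitochondrial UMIs (unique molecular identifiers, each 1 captured RNA molecule) were left out, 10457 remained: 3196 in the Club-Tracer, 1402 in the BASC-Tracer and 5859 in the AT2-Tracer library. Their median depth was 15406, 15222 and 9682 UMIs. The labels name the cells as lung epithelial, and most barcodes carried epithelial genes. Each barcode was assigned to a class by a gate, a minimum of UMIs per 10000 from marker genes of that class, which never include Apoe or Apoc1. However, 1672 AT2-Tracer, 98 BASC-Tracer and 15 Club-Tracer barcodes passed a macrophage gate. In the AT2-Tracer library these had 406 counts per 1000000 (CPM) of the leukocyte gene Ptprc and 13.8 of the epithelial gene Epcam. Their level of the ZsGreen reporter transcript was 69.2 CPM, against 7063 in AT2-gated cells. Between 6 and 23 kept barcode sequences were shared by each pair of libraries, and leaving them out moved none of the 10 main ratios beyond counting error.

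Over all kept barcodes, Apoe stood at 19.0 CPM (17.9 to 20.1) in the Club-Tracer, 1661 (1646 to 1676) in the BASC-Tracer and 4560 (4544 to 4576) in the AT2-Tracer library. The corresponding Apoc1 levels were 41.1 (39.5 to 42.8), 54.4 (51.7 to 57.2) and 154 CPM (151 to 157). Both genes thus followed the same order of libraries, but the AT2-Tracer to Club-Tracer ratio was 241 (227 to 255) for Apoe and 3.75 (3.59 to 3.92) for Apoc1. Of 3330 genes that reached 50 CPM in at least 1 of the 2 libraries, 15.1% were at least 2-fold higher (on CPM + 5, as for all such shares below) and 5.23% at least 2-fold lower in the AT2-Tracer one. With the mean of per-cell CPM, the Apoe ratio was 136. The macrophage gate held 92.2% of the Apoe UMIs of the AT2-Tracer library and 91.3% of those of the BASC-Tracer library. For Apoc1 it held only 14.4% and 3.89%, and the AT2 gate held 70.6% and 65.5%. The library totals therefore count different cells for the 2 genes.

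**Figure D1:**
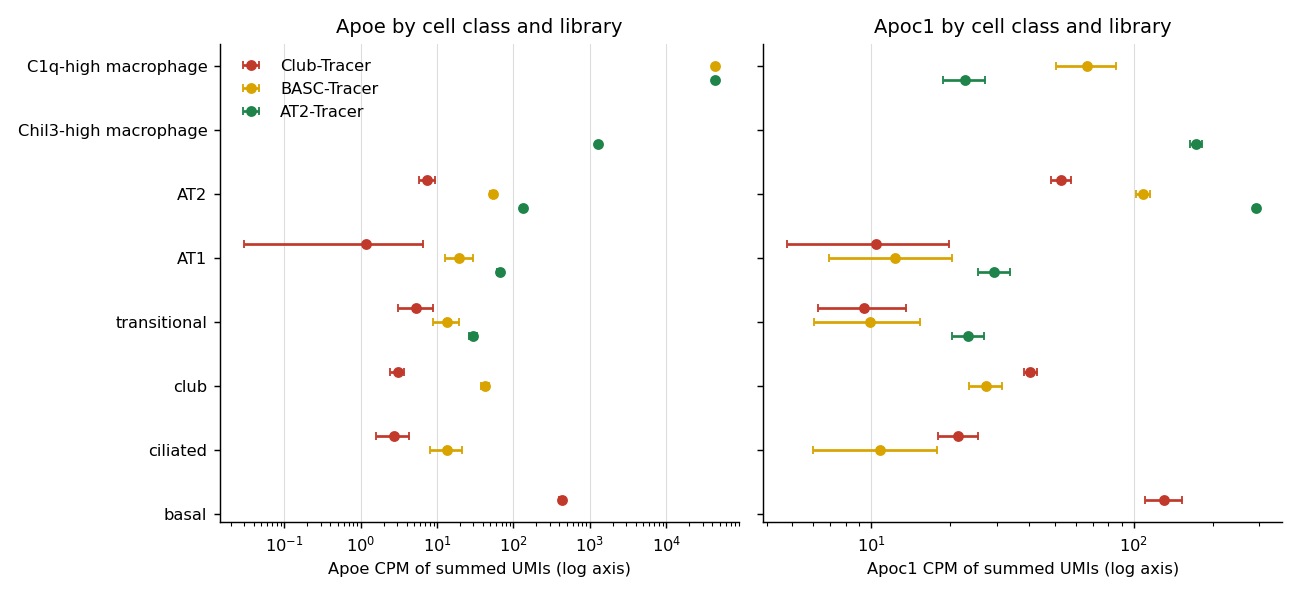
Level of Apoe (left) and Apoc1 (right) in each gated class with 50 or more cells, as CPM of summed UMIs on a log axis, with 95% Poisson intervals. Apoe is highest in C1q-high macrophages (43969 and 44022 CPM) and Apoc1 in AT2 cells of the AT2-Tracer library (292 CPM), and in AT2 cells the 3 libraries stand in the same order for both genes.

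Macrophages held the highest Apoe level. In the AT2-Tracer library they had 18990.2 CPM of Apoe, 144 times (139 to 149) the AT2 level, whereas their Apoc1 level of 101 CPM was 0.345 times (0.326 to 0.364) that of AT2 cells. Of 3713 genes at 50 CPM or more in either class, 23.1% were at least 2-fold higher and 21.6% at least 2-fold lower in macrophages. In the BASC-Tracer library the ratios were 723 (661 to 792) for Apoe and 0.502 (0.380 to 0.654) for Apoc1, where 26.7% and 21.7% of genes were that far apart. The 15 Club-Tracer macrophages were too few for a level of their own.

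Macrophages were split by Chil3, a chitinase-like gene of alveolar macrophages, and by the complement genes C1qa, C1qb and C1qc. In the AT2-Tracer library the 787 Chil3-high cells had 1287 CPM of Apoe (1262 to 1313) and the 694 C1q-high cells 43969 CPM (43790 to 44148), a ratio of 34.2 (33.5 to 34.8). Apoc1 went the other way, with 172 CPM (163 to 182) in Chil3-high and 22.7 CPM (18.8 to 27.2) in C1q-high cells, a ratio of 0.132 (0.108 to 0.159). With gates 2 times as strict, the Apoc1 ratio was 0.0861. Among 3148 genes, 11.9% were at least 2-fold higher and 10.5% at least 2-fold lower in C1q-high cells. The 82 C1q-high cells of the BASC-Tracer library had almost the same Apoe level, 44022 CPM, and the ratio between the 2 libraries was 0.999 (0.988 to 1.01). That interval leaves out the spread between cells: the variance of Apoe UMIs per cell was 457 times the mean in the BASC-Tracer and 234 times in the AT2-Tracer cells. The Apoc1 level of the BASC-Tracer C1q-high cells was 66.3 CPM, however, so that the AT2-Tracer to BASC-Tracer ratio was 0.342 (0.249 to 0.476). That level rests on 59 UMIs, of which 9 of the 82 cells held 81.4%. Of these 82 cells, 71 were high in the interstitial list described below, against 221 of the 694 AT2-Tracer cells. For every 100 Apoe UMIs, C1q-high cells of the AT2-Tracer library held 0.0517 Apoc1 UMIs, Chil3-high cells 13.4 and AT2 cells 222.

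Nearly every C1q-high cell carried many Apoe UMIs. Of the 694 cells, 99.1% had 10 or more Apoe UMIs, the median was 247.5 and the highest 1736. Chil3-high cells were uneven: the median was 1 UMI, 40.4% had none, 19.4% had 10 or more and the top 10% of cells held 78.1% of the Apoe UMIs. The top 10% of the same cells held 21.3% of their Chil3 UMIs, but these cells were gated on Chil3. Its more even spread is therefore partly set by the gate, and nothing is read from it. Apoc1 was also concentrated in Chil3-high cells, of which 33.8% had a UMI and the top 10% held 68.1% of the total. Of Chil3-high cells with an Apoe UMI, 38.8% had an Apoc1 UMI, against 26.4% of those without, at median depths of 9756 and 9818 UMIs.

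C1q-high macrophages include cells with genes of interstitial macrophages (Ccl8, Cxcl13, Cd163, Folr2, Lyve1 and F13a1). Within the AT2-Tracer library, the 221 cells high in that list had 36540.2 CPM of Apoe and 42.4 of Apoc1. The 473 cells low in it had 46217 and 16.8 CPM. The 71 BASC-Tracer cells high in the list had 38058 CPM of Apoe and 79.0 of Apoc1. Within AT2-Tracer C1q-high cells the 2 genes therefore again lay in opposite directions, with ratios of 0.791 (0.783 to 0.799) for Apoe and 2.53 (1.73 to 3.68) for Apoc1. The Apoc1 ratio rests on 120 UMIs in 65 of the 694 cells. RNA from AT2 cells was not estimated in macrophages, and its part in these Apoc1 levels was not tested.

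**Figure D2:**
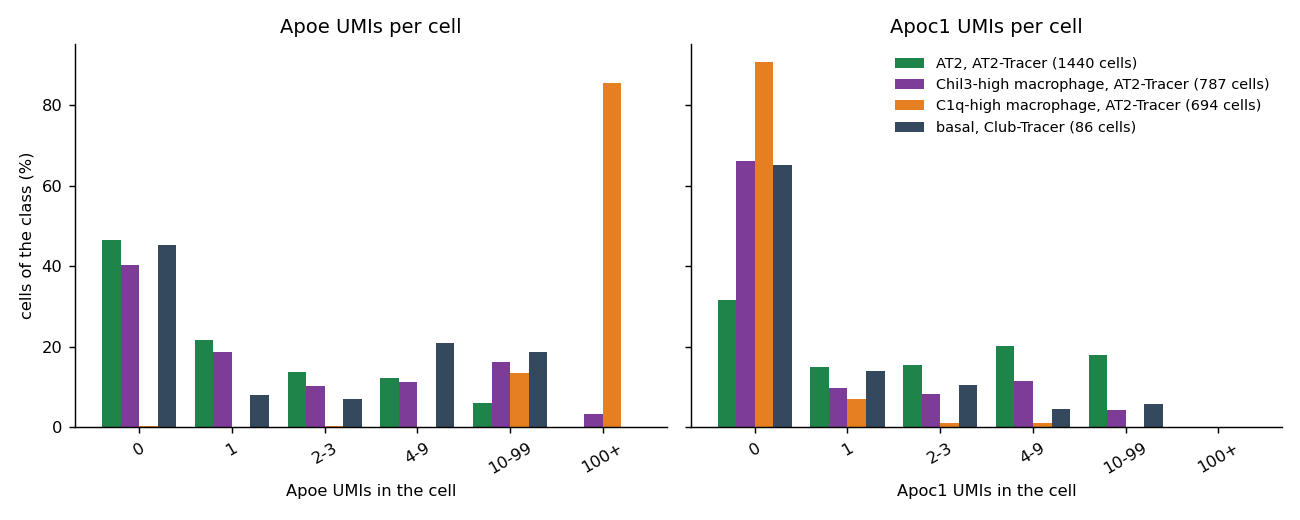
Share of cells (%) by the number of Apoe (left) or Apoc1 (right) UMIs in the cell, for 4 classes; cells differ in depth. For Apoe, 85.6% of C1q-high macrophages have 100 or more UMIs and 40.4% of Chil3-high macrophages have 0, while for Apoc1 90.6% of C1q-high macrophages and 31.5% of AT2 cells have 0.

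AT2 cells, which make and recycle surfactant, held the highest Apoc1 level of the classes with 50 or more cells in the BASC-Tracer and AT2-Tracer libraries. Apoc1 stood at 52.8 CPM (48.3 to 57.6) in the 381 AT2 cells of the Club-Tracer, 108 (102 to 115) in the 320 of the BASC-Tracer and 292 (286 to 299) in the 1440 of the AT2-Tracer library. Apoe in the same cells stood at 7.35 (5.73 to 9.28), 53.9 (49.2 to 58.8) and 132 CPM (127 to 136). No intervals overlapped between libraries for either gene, but they leave out the spread between cells. The share of all genes with intervals apart was not counted, and nothing is read from this. In that order of libraries, the variance of Apoe UMIs per cell was 7.78, 23.0 and 11.0 times the mean in these AT2 cells. The same cells also differed in Scgb1a1, at 45162, 10964 and 43.9 CPM, and its part in these differences was not tested. Club-Tracer cells had 0.0558 times (0.0434 to 0.0707) the Apoe and 0.181 times (0.165 to 0.198) the Apoc1 level of AT2-Tracer cells. For BASC-Tracer cells these ratios were 0.409 (0.372 to 0.450) and 0.370 (0.346 to 0.396). Both members were among the 3.33% of 2915 genes at least 2-fold lower in the Club-Tracer cells and the 0.602% of 2990 at least 2-fold lower in the BASC-Tracer cells, shares from which nothing is read, since the members were chosen on this contrast. The shares of genes at least 2-fold higher were 2.06% and 1.2%. With gates 2 times as strict, the Club-Tracer to AT2-Tracer ratio of Apoe was 0.0250.

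The share of AT2 cells with a UMI followed the level. With every cell thinned to 1500 UMIs, Apoe was seen in 1.88% (0.758 to 3.83, exact Clopper-Pearson) of Club-Tracer, 9.63% (6.55 to 13.5) of BASC-Tracer and 16.1% (14.3 to 18.2) of AT2-Tracer AT2 cells. At full depth the shares were 5.25%, 33.4% and 53.4%. For Apoc1 the thinned shares were 5.90% (3.73 to 8.79), 10.6% (7.39 to 14.7) and 26.1% (23.8 to 28.5), and those at full depth 32.02%, 41.9% and 68.5%. In AT1 cells of the AT2-Tracer library, a class that stood at the macrophage RNA background for Apoe, the thinned share was 13.04% for Apoe and 3.04% for Apoc1, at median depths of 5594 UMIs in AT1 and 17458.5 in AT2 cells. The AT1 shares are given beside those of AT2 cells as values only, since the estimate of macrophage RNA differs between the classes (72.4 CPM of Apoe in AT1 and 33.2 in AT2 cells) and AT1 cells lie above it for Apoc1.

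Because macrophages of the AT2-Tracer library hold so much Apoe, the level that their RNA alone could give in other cells was estimated from 18 genes of macrophages. Some of the 18, such as Tyrobp, also belong to the macrophage gate. It sets a minimum for macrophages and a maximum for AT2 cells. The percentages of such genes, and so the estimate, are partly set by the gate. In AT2-Tracer AT2 cells the 18 genes stood at a median of 0.175% of their macrophage level, from 0.125% for Tyrobp to 1.41% for Mpeg1. That share of the macrophage Apoe level is 33.2 CPM. The measured 132 CPM was 3.96 times as high, and 2 of the 18 genes (Cd68 and Mpeg1) lay above Apoe in percent. In BASC-Tracer AT2 cells the estimate was 14.2 CPM and the measured level 3.798 times as high, with 4 of 18 genes above Apoe (Cd68, Mpeg1, Ctsk and Plet1). With the mean of per-cell CPM the AT2-Tracer ratio was 2.34, and with the C1q genes alone as background 4.62.

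AT1 and transitional cells differed from AT2 cells in this respect. AT1 cells line the air side of the alveolus, and transitional cells, high in Krt8 and Cldn4, are an injury state between AT2 and AT1. Apoe in AT2-Tracer cells stood at 66.7 CPM (60.6 to 73.3) in AT1 and 29.5 CPM (26.0 to 33.4) in transitional cells, which were 0.921 and 0.913 times the estimate from macrophage RNA. In the BASC-Tracer library AT1 cells stood at 0.689, ciliated cells at 0.882 and club cells at 1.38 times it. BASC-Tracer transitional cells stood at 4.17 times it, on 27 Apoe UMIs in 75 cells, with 9 of the 18 genes at 0.

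For Apoc1 the same estimate was 0.176 CPM in AT2-Tracer AT2 cells, and the measured level was 1657 times as high. Macrophages had less Apoc1 than AT2 cells (101 against 292 CPM), so a small share of their level could not come near the measured one. The size of the multiple follows from this and is not to be compared with that of Apoe. The multiple was 665 with the mean of per-cell CPM and 951 with gates 2 times as loose. Even in AT1 and transitional cells of that library, at 29.4 (25.4 to 33.8) and 23.4 CPM (20.3 to 26.9), Apoc1 was 76.5 and 137 times the macrophage estimate. RNA from AT2 cells themselves, in which Apoc1 is highest, is not part of that estimate, and its share in those cells was not tested.

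**Figure D3:**
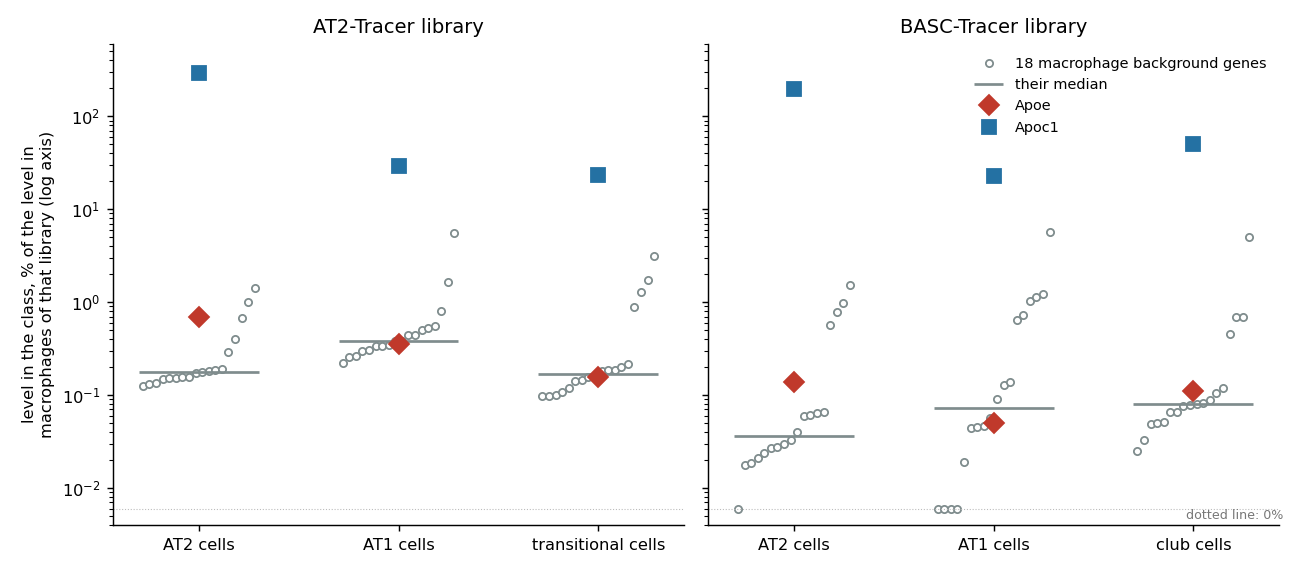
Level of each gene in epithelial classes as a percentage of its level in macrophages of the same library (log axis), for 18 macrophage genes, Apoe and Apoc1. Apoe lies above the median of the 18 genes in AT2 cells (0.693% against 0.175% in the AT2-Tracer library) and close to it in AT1 and transitional cells of the AT2-Tracer library, whereas Apoc1 lies above all 18 genes in every class drawn.

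AT2 cells were also split by how many UMIs of the 18 genes each held. In the 408 AT2-Tracer AT2 cells with 0 such UMIs, Apoe was at 93.8 CPM (86.8 to 101) and Apoc1 at 281 (269 to 293). Apoe was higher with each step, at 110 CPM with 1 UMI, 151 with 2 or 3 and 188 with 4 to 9. It reached 769 CPM in the 22 cells with 10 or more. Apoc1 lay between 281 and 352 CPM over the same steps. The libraries kept their order among cells with 0 such UMIs, at 6.91 (5.02 to 9.28), 38.9 (33.3 to 45.3) and 93.8 CPM for Apoe and 53.3 (47.8 to 59.3), 104 (94.4 to 114) and 281 CPM for Apoc1. In all AT2 cells the summed level of the 18 genes was 27.0, 30.6 and 95.2 CPM in the Club-Tracer library, the BASC-Tracer library and the AT2-Tracer library, with 4, 1 and 0 of the 18 genes at 0. In the Club-Tracer library 1 AT2 cell held 77 of the 257 UMIs of these genes.

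**Figure D4:**
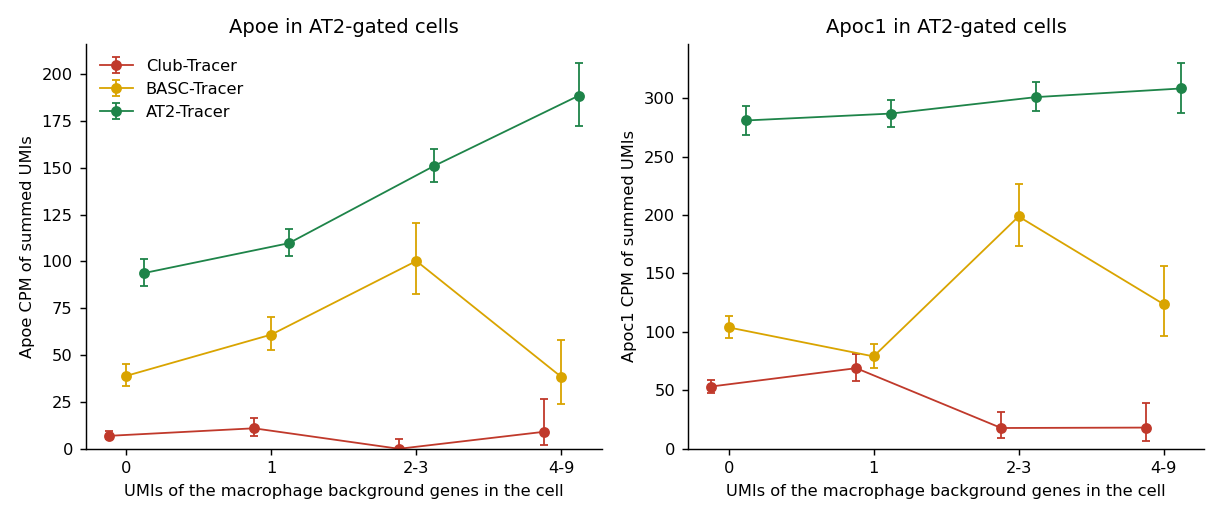
Apoe (left) and Apoc1 (right) CPM of summed UMIs in AT2-gated cells by the number of UMIs of 18 macrophage genes in the cell, with 95% Poisson intervals; cells with 10 or more are not drawn. Apoe in the AT2-Tracer library goes from 93.8 to 188 CPM and Apoc1 from 281 to 308 CPM, and the Club-Tracer cells stay at or below 10.9 CPM of Apoe.

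Both genes were unevenly spread over AT2 cells. In the AT2-Tracer library the top 10% of AT2 cells held 61.2% of the Apoe and 48.7% of the Apoc1 UMIs, and 5.97% and 17.9% of cells had 10 or more. No AT2 cell there had 10 or more UMIs of the macrophage genes Tyrobp, C1qa or Ctss. AT2 cells had to be low in the genes of the macrophage gate, of which Tyrobp is one. That result is therefore partly set by the gate. Of Chil3, however, 4 cells had 10 or more UMIs (38 at most), and the top 10% of AT2 cells held 57.0% of its UMIs. In the BASC-Tracer library 1 AT2 cell alone had 83 of the 494 Apoe UMIs. In the Club-Tracer library 361 of 381 AT2 cells had none of the 70 Apoe UMIs, and 3 had 10 or more. Of AT2-Tracer AT2 cells with an Apoe UMI, 75.6% had an Apoc1 UMI, against 60.4% of those without, at median depths of 17512 and 17185 UMIs. Both genes were seen together in 40.3% of AT2-Tracer, 15.9% of BASC-Tracer and 2.10% of Club-Tracer AT2 cells.

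AT2 states with other genes were compared within the same library. Among AT2-Tracer cells, the 663 AT2 cells with a UMI of Itih4, an acute phase gene, had 164 CPM of Apoe and 380 of Apoc1, and the 777 without had 98.7 and 204. Both ratios were above 1, at 1.67 (1.55 to 1.79) and 1.86 (1.78 to 1.96), and in the BASC-Tracer library at 1.89 (1.54 to 2.30) and 3.24 (2.85 to 3.68). A split on any UMI of a gene also depends on depth, whose part in these ratios was not tested. Nor was the part of the 1 BASC-Tracer AT2 cell that held 83 of the 494 Apoe UMIs. The summed level of the 18 macrophage genes was lower in the AT2-Tracer cells with Itih4 (85.0 against 106 CPM). Cells with 3 or more UMIs of the alarmin gene Il33 had 344 CPM of Apoc1, 1.87 times (1.76 to 1.996) that of cells with none, while their Apoe ratio was 0.944 (0.867 to 1.03). In the BASC-Tracer library the same split gave ratios above 1 for both genes, 2.20 (1.90 to 2.55) for Apoc1 and 1.58 (1.28 to 1.95) for Apoe, with 83 of the 214 Apoe UMIs of the Il33 group in 1 cell. These Il33 groups also differed in depth, with medians of 21030.0 and 12430.5 UMIs in the AT2-Tracer and 37114 and 23875 in the BASC-Tracer library.

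Krt8, a keratin of the injured alveolus, marked AT2 cells with less Apoc1. AT2-Tracer AT2 cells with 10 or more Krt8 UMIs per 10000 had 184 CPM of Apoc1 against 320 below that, a ratio of 0.577 (0.538 to 0.617). The Apoe ratio was 0.865 (0.791 to 0.944). In the BASC-Tracer library the ratios were 0.712 (0.579 to 0.867) and 0.602 (0.437 to 0.812). There 1 cell of the group lower in Krt8 held 83 of the 494 Apoe UMIs of all AT2 cells. The part of that cell in the Apoe ratio was not tested. Splits by Cdkn1a (a p53 target), Lyz1 and cell cycle genes gave AT2-Tracer ratios between 0.795 and 1.24 for Apoe and between 0.897 and 1.01 for Apoc1. The Cdkn1a split of BASC-Tracer cells gave 1.71 (1.42 to 2.05) for Apoe, with 83 of 278 UMIs in 1 cell, and 1.11 (0.974 to 1.26) for Apoc1. The summed level of the 18 macrophage genes was 38.3 CPM in its Cdkn1a-high and 24.9 in its Cdkn1a-low cells, and its part in the ratio was not tested.

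Basal cells, the stem cells of the conducting airway, had the highest Apoe level among the epithelial classes with 50 or more cells. The 86 basal cells of the Club-Tracer library had 435 CPM of Apoe (397 to 475) and 130.1 of Apoc1 (110 to 153). These 86 cells held 43.7% of all Apoe UMIs of that library. Their ratio to club cells, which had 3.05 CPM of Apoe (2.46 to 3.75) and 40.3 of Apoc1 (38.0 to 42.6), was 142 (114 to 180) for Apoe and 3.23 (2.71 to 3.83) for Apoc1. Of 3168 genes, 33.0% were at least 2-fold higher and 4.45% at least 2-fold lower in basal cells. Here 16 of the 18 macrophage genes were at 0 UMIs, and their summed level was 16.6 CPM, below the 20.0 CPM of club cells. Apoe was seen in 47 of the 86 cells, with 10 or more UMIs in 16.

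A further 29.0% of the Apoe UMIs of the Club-Tracer library lay in 70 epithelial cells that no class gate took and that had 5 to 20 UMIs of basal genes per 10000. Their Apoe level was 472 CPM (422 to 526) and their Apoc1 level 180 CPM (150 to 214). The 385 such cells with no basal UMI had 1.39 CPM of Apoe (0.599 to 2.73) and 26.9 of Apoc1 (22.8 to 31.5). In this library, which holds few macrophages, Apoe therefore lay mostly in barcodes with basal genes.

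The remaining classes of the Club-Tracer library were low in Apoe, and their order follows. AT2 cells at 7.35 CPM were followed by transitional cells at 5.39 (3.08 to 8.75), club cells at 3.05 and ciliated cells at 2.72 (1.59 to 4.36), and the intervals of neighbours in this order overlapped. AT1 cells had 1 Apoe UMI in 91 cells, or 1.16 CPM (0.0294 to 6.46). For Apoc1 the order was basal, AT2, club, ciliated (21.5 CPM, 17.99 to 25.4), AT1 (10.4, 4.77 to 19.8) and transitional cells (9.42, 6.26 to 13.6), and the intervals of ciliated and AT1 cells overlapped, as did those of AT1 and transitional cells. Club cells of the BASC-Tracer library had 42.7 CPM of Apoe (37.9 to 48.0) and 27.3 of Apoc1 (23.5 to 31.6). Apoe in club cells was thus higher, and Apoc1 lower, than in the Club-Tracer library, with macrophage genes at 47.5 against 20.0 CPM.

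In the BASC-Tracer library, AT1 cells had 19.7 CPM of Apoe (12.6 to 29.3), ciliated cells 13.6 (8.20 to 21.3) and transitional cells 13.4 (8.84 to 19.5), with overlapping intervals. Those of their Apoc1 levels, 12.3 (6.88 to 20.3), 10.8 (6.02 to 17.7) and 9.93 CPM (6.07 to 15.3), overlapped too.

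Neighbours of the 2 genes had patterns of their own. Apoc2, the activator of lipoprotein lipase, had 70.4 CPM in C1q-high and 37.7 in Chil3-high macrophages of the AT2-Tracer library, and Apoc4 had 105 and 5.13. In AT2 cells of that library both were near 0, at 0.116 and 0.271 CPM, unlike Apoc1, which lies between them and Apoe. Basal cells had 0 UMIs of either. On the other side, Bcam, a laminin receptor of epithelia, had 644 CPM in AT2 cells and 66.5 in macrophages, and Nectin2, an adhesion gene, 166 and 8.36. Clptm1 had 91.6 and 59.1 CPM. Counting Apoe and Apoc1, 6 of 11 genes of the region were at 50 CPM or more in macrophages or AT2 cells of the AT2-Tracer library. Of these, 2 were at least 2-fold higher in macrophages (Apoe and Apoc2) and 3 at least 2-fold lower, against 23.1% and 21.6% of all genes. The count includes Apoe and Apoc1, which were chosen on their values, and nothing is read from it.

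**Figure D5:**
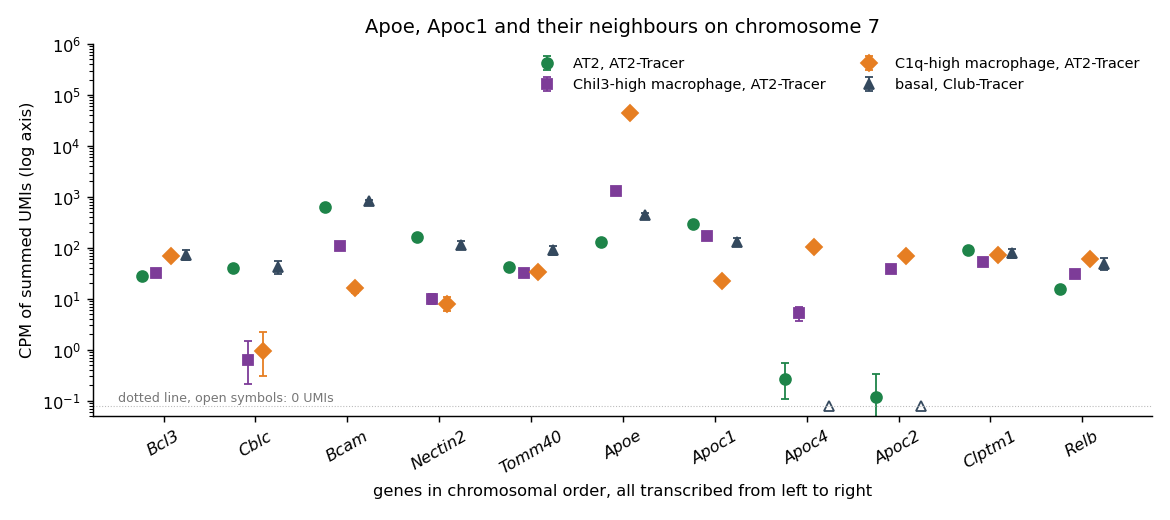
Level of Apoe, Apoc1 and their neighbours, in chromosomal order, in 4 classes, as CPM of summed UMIs on a log axis with 95% Poisson intervals; open symbols are 0 UMIs. Each gene is to be compared across classes, not with other genes: Apoe and Apoc4 are highest in C1q-high macrophages (43969 and 105 CPM) and Apoc1 in AT2 cells (292 CPM).

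Other apolipoproteins were few. Of 16 genes on that list, 4 were at 50 CPM or more in macrophages or AT2 cells of the AT2-Tracer library, 2 higher in macrophages (Apoe and Apoc2) and 2 lower (Apoc1 and Clu), with a median log2 ratio of 1.00 against 23.1% higher, 21.6% lower and a median of -0.08 over all genes tested. The count and the median include Apoe and Apoc1, which were chosen on their values, and nothing is read from them. Clu, which codes for clusterin, stood at 198 CPM in AT2, 403 in AT1 and 3667 in transitional cells of the AT2-Tracer library. Among these epithelial classes Clu was thus lowest in AT2 cells, in which Apoc1 was highest, while the Apoc1 intervals of AT1 and transitional cells overlapped. Macrophages of that library had less Clu still, at 7.06 CPM. Apoa1 was at or below 1.12 CPM in each class with a value here.

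More genes of lipoprotein receptors and uptake were higher in macrophages than were lower, relative to AT2 cells. Of 19 genes, 13 were measured in the AT2-Tracer comparison, 7 were at least 2-fold higher in macrophages and 3 lower, with a median log2 ratio of 2.34. Over all 3713 genes 23.1% were higher and 21.6% lower, with a median of -0.08, so the count of lower genes is near the share over all genes. Lrp1, a large receptor of ApoE, had 473 CPM in macrophages and 1.59 in AT2 cells, and Lrp2, its epithelial relative, 4.18 and 313. Trem2, a lipid receptor of macrophages, had 536 and 2.13 CPM, its adaptor Tyrobp 3035 and 3.797, and the scavenger receptor Marco 579 and 0.969. Cd36, a fatty acid and scavenger receptor, had 72.0 and 558. Tyrobp is one of the genes of the macrophage gate, so its difference and its place among the higher genes are partly set by the gate. Between macrophages, Trem2 had 910 CPM in C1q-high and 220 in Chil3-high cells, as Apoe did in direction, and Marco 9.09 and 1102. Of 12 list genes measured there, 2 were higher and 4 lower in C1q-high cells, where 11.9% and 10.5% of all 3148 genes were, and the count of higher genes is near that share.

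Genes of cholesterol efflux and its nuclear receptors lay on both sides, as genes did in general. Of 16 genes, 11 were measured, 4 higher and 4 lower in AT2-Tracer macrophages than in AT2 cells, with a median log2 ratio of -0.31 (23.1% higher, 21.6% lower and a median of -0.08 over all genes). The efflux transporter Abca1 had 174 CPM in macrophages and 19.2 in AT2 cells, and Abcg1 265 and 0.891. Between macrophages the 2 transporters differed: Abca1 had 323 CPM in C1q-high and 59.0 in Chil3-high cells, and Abcg1 62.5 and 433. The surfactant lipid transporter Abca3 (43.4 and 671 CPM) and the desaturases Scd1 (57.5 and 3355) and Scd2 (55.3 and 378) were lower in macrophages than in AT2 cells. Abca3 is one of the genes of the AT2 gate, so its difference and its place among the lower genes are partly set by the gate.

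Lipolysis and lysosomal cholesterol genes were mostly on the macrophage side, with 10 of 13 measured genes higher and 1 lower than in AT2 cells and a median log2 ratio of 4.24, against 23.1% higher, 21.6% lower and a median of -0.08 over all genes. The lysosomal genes Psap (4416 and 62.7 CPM) and Ctsd (4770.2 and 247), the glycoprotein gene Gpnmb (569.5 and 1.47) and the fatty acid binding gene Fabp5 (827 and 267) were higher in macrophages. Npc2, a lysosomal cholesterol carrier that is also in surfactant, had 1165 and 11007 CPM. Lpl, the lipase that ApoC1 hinders, had 1612 CPM in Chil3-high and 149.9 in C1q-high macrophages, the direction of Apoc1 and not of Apoe. The lists of Club-Tracer against AT2-Tracer AT2 cells had 6 receptor genes measured (0 higher, 1 lower), 7 efflux genes (0 and 0) and 8 lipolysis genes (1 and 2), with medians of -0.39, -0.20 and -0.24, against 2.06% higher, 3.33% lower and a median of -0.14 over all genes.

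The genes whose levels were most like those of the members over 16 class-by-library profiles were ranked by Pearson r of log2(CPM + 5) among 6208 genes. The profiles share libraries, and r is a description. For Apoe they were Ccl2 (r = 0.953), Nav1, Igfbp4, Nr4a3, Hebp1, Man2a1, Nfkbiz, Csrnp1, Tnfaip2 and Bcl2l11 (0.931). Ccl2, a monocyte chemokine, had 1620.0 CPM in C1q-high macrophages and 3.68 in AT2 cells of the AT2-Tracer library. For Apoc1 they were Irs2 (r = 0.843), Il6, Anpep, Nfil3, Ipmk, Sgms1, Mtln, Hexim1, Inpp4b and Fkbp2 (0.716). Irs2, an insulin receptor substrate, had 122 CPM in AT2-Tracer and 75.3 in Club-Tracer AT2 cells. Apoc1 was at rank 1029 for likeness to Apoe and Apoe at rank 101 for likeness to Apoc1, with r = 0.537. With macrophages split into Chil3-high and C1q-high, a choice made after seeing the data, 5 of the 10 genes for Apoe and 6 of the 10 for Apoc1 were the same.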

How the data were processed

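Libraries were made with 10x 5′ v2 chemistry, per the labels' protocols. The deposited matrices hold raw counts (UMIs) per gene and barcode. The submitters' processing notes name Cell Ranger 6.1.1 and mm10; no source used here names the annotation release. Levels are CPM of summed counts per library and class. Intervals are 95%: exact Poisson (levels), exact conditional (ratios) and Clopper-Pearson (shares). With 1 library per group no test was run. Features called far apart were 2-fold apart at 50 CPM or more, on log2(CPM + 5).

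Classes were gated per barcode on UMIs per 10000 of marker lists that hold neither member. The members and lists were chosen with earlier results of these data known, and the gate minimums after seeing the gate genes. Classes under 50 cells got no level. Named genes were Apoe, Apoc1, the 10 most like each, and up to 6 per list with the highest CPM in AT2-Tracer macrophages or AT2 cells. Likeness left out mitochondrial, ribosomal, predicted, immune receptor and sex-linked genes. The macrophage RNA background is the median percentage of the macrophage level over 18 genes, times the member's macrophage level. The 18 include genes of the macrophage gate, such as Tyrobp. No doublets were removed from the main values: Scrublet (scanpy 1.11.5) by its own threshold called 1 Club-Tracer, 0 BASC-Tracer and 101 AT2-Tracer barcodes. Alternatives were other gene and mitochondrial limits, gates, scalings and backgrounds, and removal of the highest Scrublet scores. Scripts were tested on simulated data, in Python 3.11.15 with scipy 1.17.1.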

Additional observations from a re-analysis of the deposited data

Results flagged for a closer look

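Barcodes under 500 genes, which the comparisons leave out, also carried both genes. Apoe there stood at 27.2 CPM in 1872 Club-Tracer, 1158 in 959 BASC-Tracer and 2687 in 2686 AT2-Tracer barcodes. Apoc1 stood at 18.9, 39.5 and 106 CPM in the same sets. The order of libraries was that of the kept barcodes for both genes. Among kept AT2-Tracer barcodes outside the main classes, 24 with fibroblast or smooth muscle genes had 4289.7 CPM of Apoe (4060 to 4530), with the macrophage genes at 2771 CPM, and 47 with dendritic cell genes had 854 CPM (776 to 937), with them at 6306 CPM. In the dendritic barcodes 1 cell held 244 of the 445 Apoe UMIs. The part of macrophage RNA in these levels was not tested.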

How the results depend on the processing

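Of 102 recomputed values of the 10 main ratios, 65 stayed within counting error of the reported ratio, 37 moved beyond it and 0 changed direction. Apoe in AT2 cells over macrophage RNA (3.96) was 4.19 with 1000 genes or more, 4.33 with at most 10% mitochondrial UMIs, 3.49 with gates 2 times as strict, 3.11 with gates 2 times as loose, 2.34 with per-cell means, 4.62 with C1q genes as background and 2.82 in AT2 cells with no macrophage UMI. The Apoc1 multiple (1657) was, in that order, 1814, 1832, 1571, 951, 665, 1934 and 1593, and 1604 with 25% mitochondrial UMIs and 1613 with alveolar macrophage genes. The values for AT2 cells with no macrophage UMI (2.82 and 1593) are their levels over the macrophage RNA estimate of all AT2 cells. Strict gates gave 0.0250 and 0.159 for Apoe and Apoc1 in Club-Tracer over AT2-Tracer AT2 cells, 204 and 0.454 for macrophages over AT2 cells, and 43.7 and 0.0861 for C1q-high over Chil3-high macrophages. Loose gates gave 0.199 for Apoc1 in the first, 112 and 0.365 in the second, and 22.8 and 0.181 in the third. Per-cell means gave 0.200 for Apoc1 in the first, 104 and 0.365 in the second, 34.9 for Apoe in the third, and 136 and 3.19 for AT2-Tracer over Club-Tracer libraries. Scaling without mitochondrial, secretoglobin and surfactant UMIs gave 199 and 3.10 for the libraries and 125.0 and 0.299 for macrophages over AT2 cells. The cause was not tested. Leaving out the highest Scrublet scores, or barcodes shared between libraries (added after seeing the data), moved none of the 10. No paired analysis was possible because each group has 1 library and no test was run. The groups' ratios carry no replicate check, and class levels depend on gates set after seeing the gate genes.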
